A study of Mus musculus with 22 samples.

Results

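Nqo1, Hmox1, Gclc, Gclm, Srxn1, Txnrd1, Gsr, G6pdx, Ephx1 and Nfe2l2, 10 genes of the NRF2 oxidative stress response, were followed in liver RNA-Seq of newborn mice given AAV9 vectors by vein. The 10 genes were taken by name, as a list put together with earlier results of these data known, and all 10 were found among the 55291 genes of the deposited tables. The 22 livers came from male WT C57BL/6 pups that were injected at postnatal day 1 and whose livers were taken 36 hours later. The groups of 4 livers received PBS, AAV9.empty (a capsid without a vector genome), AAV9.EGFP (labelled rAAV9.CB.EGFP, in which the CB promoter drives EGFP) or rAAV9-ST3GAL5.v2 (labelled rAAV9.Syn1.ST3GAL5.miR122BS). The groups of 3 livers received rAAV9-ST3GAL5.v1 (labelled rAAV9.CB.ST3GAL5) or the vector labelled rAAV9.CB.ST3GAL5.E332K, called the E332K vector here. In rAAV9-ST3GAL5.v1 the CB promoter, which is active in most cell types, drives human ST3GAL5, the GM3 synthase that makes the precursor of most gangliosides. In rAAV9-ST3GAL5.v2 human ST3GAL5 stands behind Syn1, a promoter of neurons, and its transcript carries binding sites for miR122, a microRNA of hepatocytes. The label of the E332K vector adds E332K, the ST3GAL5 variant of the patient neurons in the study, to that of rAAV9-ST3GAL5.v1. Its construction is not described in the study's methods, so any other difference is not known. The labels do not say whether livers came from different litters, so all p-values measure only the spread between these livers.

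NRF2, the protein of Nfe2l2, is a transcription factor that KEAP1 holds in the cytoplasm and hands to the proteasome in unstressed cells. When electrophiles or oxidants modify KEAP1, NRF2 builds up, pairs with a small MAF protein and binds antioxidant response elements near genes of glutathione synthesis, thioredoxin recycling, NADPH supply, detoxification and heme breakdown. BACH1 occupies many of the same elements as a repressor, most tightly at Hmox1. In liver the pathway is known for raising the capacity to conjugate and excrete reactive compounds.

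The letters of the antioxidant response element core, TGACNNNGC (N is any base, both strands searched), were looked up in the window from 250 bases before to 50 bases after the start of each gene, because they are the part of these genes that NRF2 is known to bind. RefSeq promoter windows (GRCm38.p6) were at hand for 7 of the 10 genes. A match was held by 5 of those 7 genes, namely Gclm, Srxn1, Txnrd1, G6pdx and Nfe2l2, and Nqo1 and Ephx1 held none in this window. Over all 27025 gene symbols with a window 13.99% held a match. By window, 5 of the 9 windows of these genes and 12.4% of all 32851 windows did. A match is a string of letters and not a measured binding site, and the elements of several NRF2 genes lie farther from the start than this window reaches. The 5 matches are printed 5′ to 3′ on the strand that reads TGAC, with the matched letters in capitals and 10 bases on each side.
Gclm, 130 bases before the start, chr3:122245413-122245441, minus strand: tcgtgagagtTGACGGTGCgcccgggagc
Srxn1, 32 bases after the start, chr2:152105542-152105570, minus strand: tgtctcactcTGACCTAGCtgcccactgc
Txnrd1, 88 bases before the start of 1 of its 3 RefSeq windows, chr10:82859104-82859132, minus strand: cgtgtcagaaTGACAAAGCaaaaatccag
G6pdx, 53 bases before the start, chrX:74428919-74428947, plus strand: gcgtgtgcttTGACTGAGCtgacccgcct
Nfe2l2, 236 bases before the start, chr2:75704885-75704913, minus strand: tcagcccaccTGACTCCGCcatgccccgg

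The libraries held 17164502 to 24305788 expected counts each. The unit CPM below is a count divided by its library total, after TMM scaling over the 22 libraries, and serves to compare libraries for 1 gene. Levels of different genes are compared only as TPM, which corrects for transcript length. Alb, the hepatocyte albumin, ran from 34259 to 74837 CPM over the 22 libraries. Gm47283 stood at 0 counts in all 3 rAAV9-ST3GAL5.v1 livers, in AAV9.empty replicate 4, in AAV9.EGFP replicates 1, 2 and 4 and in rAAV9-ST3GAL5.v2 replicates 3 and 4, and at 9.98 to 31.7 CPM in the others. Comparisons were also made among livers alike in it where each group kept 2 or more such livers. This could not be done for rAAV9-ST3GAL5.v1 against AAV9.empty, PBS or the E332K vector, nor for AAV9.EGFP against AAV9.empty. In those comparisons a difference that goes with Gm47283 cannot be told apart from one of treatment. All 10 genes passed the filter on low counts in any comparison.

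Per transcript length, Ephx1 was the most abundant of the 10 genes, at 157 ± 65.4 TPM (SD over the 22 libraries), followed by Hmox1 at 145 ± 55.3 TPM and Gclm at 128 ± 16.7 TPM. Gsr, Txnrd1, Gclc and Nfe2l2 lay between 30.5 and 41.7 TPM as means over the 22 libraries. G6pdx at 18.2 ± 3.89 TPM, Srxn1 at 15.7 ± 8.88 TPM and Nqo1 at 6.76 ± 1.95 TPM were the least abundant. Nqo1 rested on 115 to 262 counts per library and each of the other 9 genes on 374 or more, so its values carried the largest counting error.

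The first comparison asks what the vector that expresses ST3GAL5 in liver changed beside the capsid alone. At the threshold of 0.05 on the edgeR adjusted p, 8 of the 10 genes were higher in the 3 rAAV9-ST3GAL5.v1 livers than in the 4 AAV9.empty livers and none was lower. Over all 14876 genes tested, 13.8% were called higher and 14.3% lower in this comparison. The rises ran from 0.24 for Gclc to 1.57 for Srxn1 on the log2 scale, and Gclm and Nqo1 did not pass. The median log2 fold change of the 10 genes was 0.51, and that of all genes tested was 0.02. Only Srxn1 also reached a 2-fold change. In bulk liver, fewer cells of a type and less RNA per cell cannot be told apart.

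**Figure D1:**
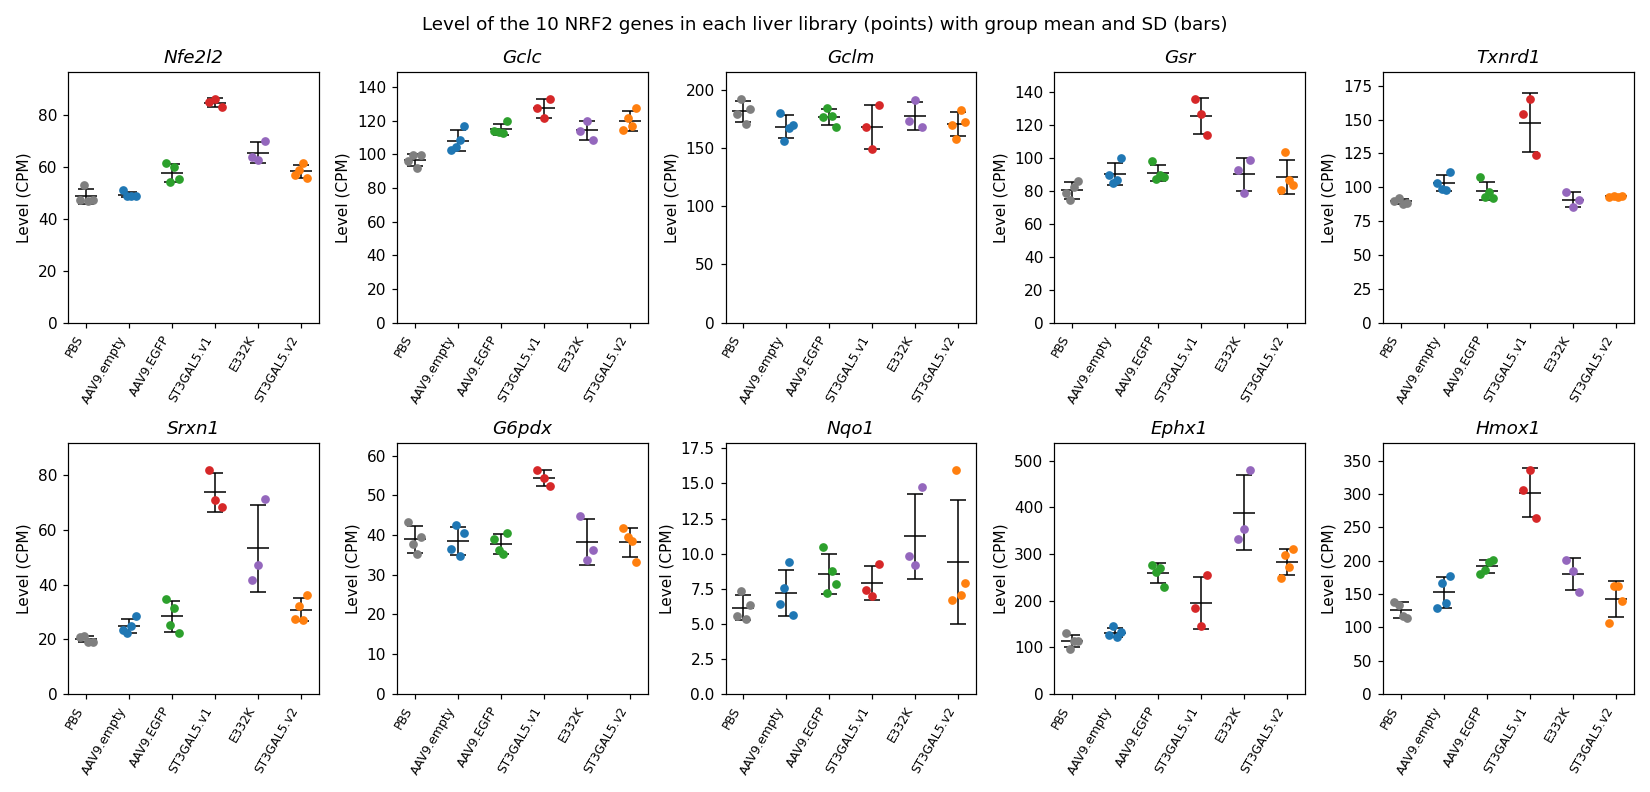
Level of each of the 10 genes in CPM (vertical axis, from 0) in the 22 liver libraries by treatment (horizontal axis), with the group mean and SD as bars. The 3 rAAV9-ST3GAL5.v1 livers lie above every other liver for Hmox1, Txnrd1, Gsr, G6pdx and Nfe2l2, whereas for Ephx1 the 3 E332K livers are the highest. How many of all genes lie apart in this way was not counted.

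Nfe2l2 itself encodes the factor. It stood at 85.2, 86.4 and 83.3 CPM in the rAAV9-ST3GAL5.v1 livers and at 51.0, 48.9, 48.9 and 48.9 CPM in the AAV9.empty livers. The E332K livers held 63.8, 62.8 and 70.1 CPM, the rAAV9-ST3GAL5.v2 livers 56.9, 59.1, 61.8 and 56.0 CPM, the AAV9.EGFP livers 61.7, 54.2, 59.9 and 55.4 CPM, and the PBS livers 47.4, 53.1, 47.0 and 47.3 CPM. The groups thus fell in 4 steps: rAAV9-ST3GAL5.v1 above the E332K vector, the E332K vector above AAV9.EGFP and rAAV9-ST3GAL5.v2, which overlapped, and these above AAV9.empty and PBS, which also overlapped. The difference from AAV9.empty was 0.78 ± 0.07 (log2 fold change ± SE) for rAAV9-ST3GAL5.v1, with an edgeR adjusted p of 0.000136, and 0.41 ± 0.08 for the E332K vector, with an edgeR adjusted p of 0.00689. For AAV9.EGFP it was 0.23 ± 0.06 and for rAAV9-ST3GAL5.v2 0.25 ± 0.07, and neither passed (edgeR adjusted p = 0.147 and 0.0519), although no liver of either group was as low as an AAV9.empty liver.

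Gclc and Gclm encode the catalytic and the modifier subunit of glutamate-cysteine ligase, which makes the first bond of glutathione, and they did not move alike. Gclc stood at 121.6 to 133.0 CPM in the rAAV9-ST3GAL5.v1 livers against 102.7 to 116.6 CPM in the AAV9.empty livers, without overlap. Its rise of 0.24 ± 0.08 passed narrowly (edgeR adjusted p = 0.0423) and was lost when rAAV9-ST3GAL5.v1 replicate 1 or 3 or any of AAV9.empty replicates 1, 2 and 3 was left out, where the adjusted p lay between 0.0848 and 0.112. The rAAV9-ST3GAL5.v2 livers, at 114.3 to 127.7 CPM, the AAV9.EGFP livers, at 112.5 to 119.6 CPM, and the E332K livers, at 108.6 to 120.0 CPM, overlapped each other, and the PBS livers were lowest at 92.0 to 99.4 CPM. Gclm lay between 148.8 and 192.2 CPM over all 22 libraries, and all 6 groups overlapped. Its log2 fold change from AAV9.empty to rAAV9-ST3GAL5.v1 was 0.00 ± 0.09. Gclm overlaps the pseudogene Gm6061 on its own strand and Gm17494 on the opposite strand, its expected counts were fractional in all 22 libraries, and its value is therefore uncertain. As TPM it differed between rAAV9-ST3GAL5.v1 and rAAV9-ST3GAL5.v2 by 0.42 ± 0.13 (limma adjusted p = 0.0433), where the counts gave a difference of −0.00 ± 0.10. On that TPM scale the median over all genes was itself 0.17 in this comparison.

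Gsr encodes glutathione reductase, which returns oxidised glutathione to its reduced form. It stood at 136.0, 126.9 and 113.8 CPM in the rAAV9-ST3GAL5.v1 livers and at 89.4, 85.0, 86.5 and 100.2 CPM in the AAV9.empty livers, a rise of 0.48 ± 0.09 (edgeR adjusted p = 0.00466). Each of the other 4 groups overlapped AAV9.empty, with 74.3 to 86.3 CPM in PBS, 87.1 to 98.3 CPM in AAV9.EGFP, 78.8 to 98.6 CPM in the E332K vector and 80.4 to 103.7 CPM in rAAV9-ST3GAL5.v2. The 3 rAAV9-ST3GAL5.v1 livers were above all 19 others.

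Txnrd1 encodes the cytosolic thioredoxin reductase. It stood at 154.3, 165.4 and 123.7 CPM in the rAAV9-ST3GAL5.v1 livers and at 103.3, 99.0, 98.3 and 111.3 CPM in the AAV9.empty livers, a rise of 0.53 ± 0.11 (edgeR adjusted p = 0.00603). The E332K livers held 96.3, 85.6 and 90.7 CPM and the rAAV9-ST3GAL5.v2 livers 92.9, 93.6, 92.7 and 93.7 CPM, all of them below the lowest AAV9.empty liver. These 2 differences, −0.18 ± 0.09 and −0.14 ± 0.07, did not pass on counts (edgeR adjusted p = 0.185 and 0.262) but did on log2(TPM + 1), where they were −0.32 and −0.30 (limma adjusted p = 0.0397 and 0.0302). On that scale the median over all genes was itself −0.10 in both comparisons.

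Srxn1 encodes sulfiredoxin, which repairs over-oxidised peroxiredoxins. It stood at 81.9, 71.0 and 68.5 CPM in the rAAV9-ST3GAL5.v1 livers and at 41.5, 47.1 and 71.4 CPM in the E332K livers, so that E332K replicate 3 lay within the range of rAAV9-ST3GAL5.v1. The AAV9.empty livers held 23.5, 22.4, 25.0 and 28.6 CPM and the PBS livers 20.8, 21.0, 19.0 and 19.0 CPM. The AAV9.EGFP livers, at 22.1 to 34.9 CPM, and the rAAV9-ST3GAL5.v2 livers, at 27.2 to 36.1 CPM, overlapped AAV9.empty. Srxn1 was the gene with the largest rise among the 10 in rAAV9-ST3GAL5.v1 against AAV9.empty, at 1.57 ± 0.10 (2.98-fold, edgeR adjusted p = 5.14e-05), and it was 1.10 ± 0.16 higher in the E332K vector (2.14-fold, edgeR adjusted p = 0.000836).

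G6pdx encodes glucose-6-phosphate dehydrogenase, the entry enzyme of the pentose phosphate pathway and a main source of NADPH. It stood at 56.4, 54.4 and 52.2 CPM in the rAAV9-ST3GAL5.v1 livers and at 36.4, 42.6, 34.6 and 40.4 CPM in the AAV9.empty livers, a rise of 0.50 ± 0.09 (edgeR adjusted p = 0.00318). The 19 livers of the other 5 groups lay between 33.1 and 44.7 CPM, and the 5 group means differed from each other by less than the spread within the groups. Exons of G6pdx overlap those of Ikbkg on the opposite strand, and strand was not kept in the libraries, so reads there cannot be told apart.

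Nqo1 encodes the quinone reductase that is often read as the marker of NRF2 activity. It was low, at 5.4 to 16.0 CPM over the 22 libraries, and the neighbouring groups overlapped throughout the order of their means. The rAAV9-ST3GAL5.v1 livers held 7.4, 7.0 and 9.3 CPM against 6.4, 7.5, 9.4 and 5.6 CPM in AAV9.empty, a difference of 0.13 ± 0.20 (edgeR adjusted p = 0.648). The highest mean was that of the E332K vector, 11.2 ± 3.03 CPM (SD, n = 3), with a difference of 0.63 ± 0.21 from AAV9.empty that did not pass (edgeR adjusted p = 0.0572). It passed without E332K replicate 2 (adjusted p = 0.0469), without AAV9.empty replicate 3 (adjusted p = 0.0348), with no filter on low counts (adjusted p = 0.0128) and with DESeq2 (adjusted p = 0.0361).

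Ephx1 encodes the microsomal epoxide hydrolase, a detoxification enzyme that is also under the control of other xenobiotic receptors. The E332K livers were highest at 331.9, 353.8 and 480.0 CPM, followed by the rAAV9-ST3GAL5.v2 livers at 249.1, 297.2, 272.2 and 311.2 CPM and the AAV9.EGFP livers at 275.5, 262.4, 270.4 and 229.6 CPM. The rAAV9-ST3GAL5.v1 livers held 183.3, 145.5 and 255.5 CPM, the AAV9.empty livers 126.0, 144.8, 121.7 and 133.1 CPM and the PBS livers 130.0, 96.5, 113.2 and 114.5 CPM. Every liver that received a capsid with a vector genome was above every liver that received AAV9.empty or PBS. Against AAV9.empty the differences were 1.56 ± 0.13 for the E332K vector (edgeR adjusted p = 8.52e-06), 1.11 ± 0.09 for rAAV9-ST3GAL5.v2 (edgeR adjusted p = 3.65e-05) and 0.99 ± 0.07 for AAV9.EGFP (edgeR adjusted p = 6.91e-06). The rise of 0.57 ± 0.16 in rAAV9-ST3GAL5.v1 (edgeR adjusted p = 0.0295) was the least even among its replicates, at 195 ± 55.9 CPM (SD, n = 3). It was lost without rAAV9-ST3GAL5.v1 replicate 1 or 3 or any of AAV9.empty replicates 1, 3 and 4, where the adjusted p lay between 0.0647 and 0.0789, and it fell to 0.33 without rAAV9-ST3GAL5.v1 replicate 3. Ephx1 overlaps the pseudogene Gm36961 on its own strand, although all its expected counts were whole.

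Hmox1 encodes the inducible heme oxygenase, which opens the heme ring to biliverdin, iron and carbon monoxide, and is abundant in macrophages that clear red cells as well as in stressed hepatocytes. It stood at 306.2, 335.9 and 263.6 CPM in the rAAV9-ST3GAL5.v1 livers. The AAV9.EGFP livers held 180.4, 186.5, 198.5 and 201.2 CPM and the E332K livers 200.6, 184.4 and 153.4 CPM. The AAV9.empty livers held 129.6, 166.3, 136.5 and 177.4 CPM, the rAAV9-ST3GAL5.v2 livers 106.4, 162.5, 162.2 and 138.8 CPM and the PBS livers 137.9, 133.5, 117.0 and 113.3 CPM. The rAAV9-ST3GAL5.v1 livers were above all 19 others, and the other groups overlapped their neighbours in the order of means. The rise over AAV9.empty was 0.99 ± 0.13 (1.99-fold, edgeR adjusted p = 0.000803). The 4 AAV9.EGFP livers were all above the 4 AAV9.empty livers, at 0.34 ± 0.09, which passed with DESeq2 (adjusted p = 0.0310) and not with edgeR (adjusted p = 0.148).

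**Figure D2:**
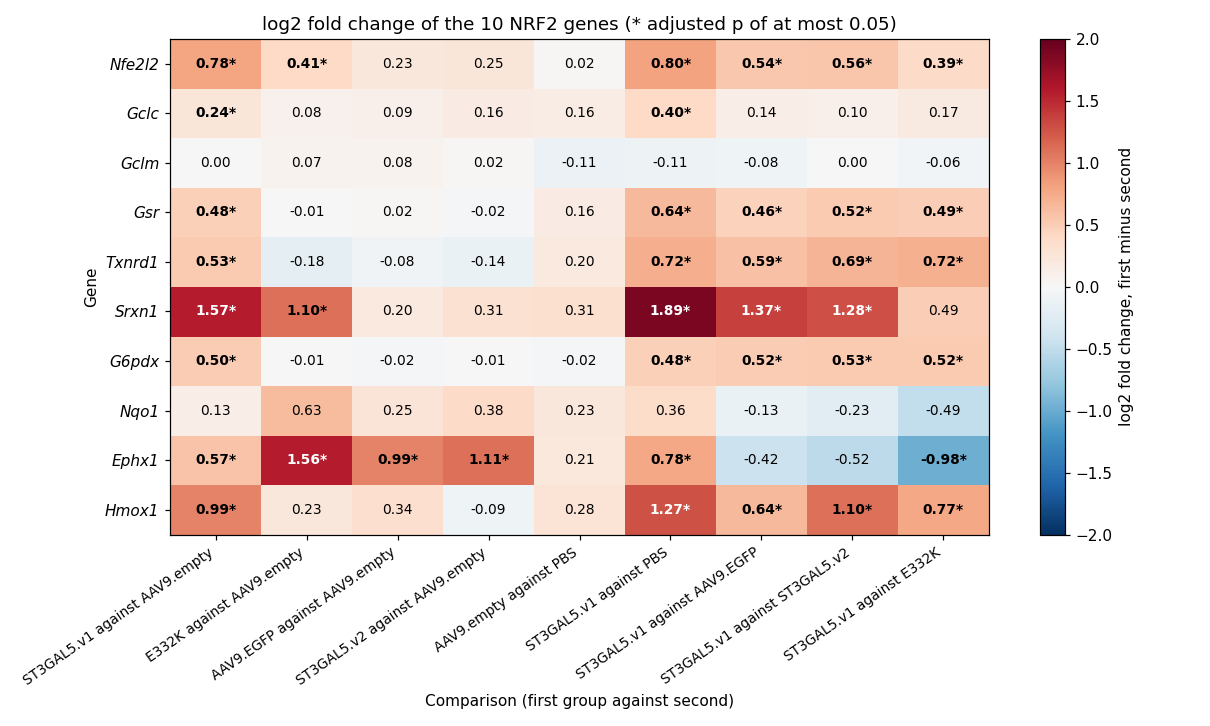
Log2 fold change (colour and number, first group minus second) of the 10 genes (rows) in the 9 comparisons (columns), with an asterisk where edgeR called the gene (threshold 0.05). Nfe2l2, Gsr, Txnrd1, G6pdx and Hmox1 are called higher in all 5 columns that set rAAV9-ST3GAL5.v1 against another group, and Ephx1 is the only gene called in AAV9.EGFP or rAAV9-ST3GAL5.v2 against AAV9.empty. Those 5 columns share the same 3 rAAV9-ST3GAL5.v1 livers, so they are not independent.

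Within the rAAV9-ST3GAL5.v1 group replicate 3 was the lowest of the 3 for Nfe2l2, Hmox1, Srxn1, Txnrd1, Gsr and G6pdx, and the highest for Nqo1, Gclc, Gclm and Ephx1.

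The E332K vector against AAV9.empty had 3 of the 10 genes higher and none lower, where 7.91% of the 14760 genes tested were higher and 7.09% lower. The 3 were Ephx1, Srxn1 and Nfe2l2, with the values given above. The median log2 fold change of the 10 genes was 0.16, and that of all genes tested was −0.00. Hmox1 (0.23 ± 0.13), Gclc (0.08 ± 0.09), Gclm (0.07 ± 0.09), Gsr (−0.01 ± 0.10), G6pdx (−0.01 ± 0.11) and Txnrd1 (−0.18 ± 0.09) did not pass. On log2(TPM + 1) with limma the call of Nfe2l2 was lost (0.29, adjusted p = 0.0617), and the split of all calls turned from 1168 higher and 1046 lower to 407 higher and 1074 lower.

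AAV9.EGFP and rAAV9-ST3GAL5.v2, each against AAV9.empty, had 1 of the 10 genes higher and none lower, and in both it was Ephx1. For AAV9.EGFP 0.387% of the 14473 genes tested were called higher and 0.0553% lower, and for rAAV9-ST3GAL5.v2 2.89% and 2.50% of 14558. The medians of the 10 genes were 0.15 for AAV9.EGFP and 0.09 for rAAV9-ST3GAL5.v2, against 0.01 for all genes in both. Nfe2l2 passed for rAAV9-ST3GAL5.v2 with DESeq2 (adjusted p = 0.0213), with a mean count of at least 10 (adjusted p = 0.0450) and in the fit of all 6 groups (adjusted p = 0.0286). The 4 comparisons with AAV9.empty share its 4 livers, so their values are not independent.

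AAV9.empty against PBS, the comparison of the capsid itself, had none of the 10 genes called by edgeR, DESeq2 or limma, with 0.104% of the 14476 genes tested higher and 0.207% lower. Before adjustment 5 of the 10 genes had an edgeR p of at most 0.05, as did 1846 of all 14476 genes tested. The median of the 10 genes was 0.18 against −0.00 for all genes, and 8 of the 10 values were above 0. The 4 AAV9.empty livers were all above the 4 PBS livers for Gclc (0.16 ± 0.07), Srxn1 (0.31 ± 0.10) and Txnrd1 (0.20 ± 0.07), with edgeR adjusted p of 0.392, 0.182 and 0.248. How many of all genes tested had groups apart in this way was not counted.

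Against PBS, rAAV9-ST3GAL5.v1 had 8 of the 10 genes higher and none lower, where 12.5% of the 14866 genes tested were higher and 12.7% lower. The rises were 1.89 ± 0.10 for Srxn1 (3.70-fold), 1.27 ± 0.11 for Hmox1 (2.41-fold), 0.80 ± 0.09 for Nfe2l2, 0.78 ± 0.17 for Ephx1, 0.72 ± 0.11 for Txnrd1, 0.64 ± 0.10 for Gsr, 0.48 ± 0.09 for G6pdx and 0.40 ± 0.08 for Gclc. Nqo1 at 0.36 ± 0.18 and Gclm at −0.11 ± 0.10 did not pass. Leaving out any 1 liver kept all 8 calls.

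Against AAV9.EGFP, which has the same promoter and capsid with another cargo, rAAV9-ST3GAL5.v1 had 6 genes higher and none lower, where 12.7% of the 14875 genes tested were higher and 15.1% lower. The 6 were Srxn1 (1.37 ± 0.14), Hmox1 (0.64 ± 0.09), Txnrd1 (0.59 ± 0.11), Nfe2l2 (0.54 ± 0.07), G6pdx (0.52 ± 0.08) and Gsr (0.46 ± 0.08). Ephx1 stood lower by a value of −0.42 ± 0.17 that did not pass (edgeR adjusted p = 0.0855) but did with DESeq2 (adjusted p = 0.0414), in the fit of all 6 groups (adjusted p = 0.0454) and without rAAV9-ST3GAL5.v1 replicate 3 (−0.66, adjusted p = 0.00378). With the single AAV9.EGFP liver that holds Gm47283 left out, 6 genes were again higher, beside 1355 higher and 1744 lower of all 14700 genes tested.

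Against rAAV9-ST3GAL5.v2, which has the same cDNA behind the neuronal promoter, rAAV9-ST3GAL5.v1 had 6 genes higher and none lower, where 12.1% of the 14875 genes tested were higher and 11.4% lower. The 6 were Srxn1 (1.28 ± 0.12), Hmox1 (1.10 ± 0.16), Txnrd1 (0.69 ± 0.11), Nfe2l2 (0.56 ± 0.08), G6pdx (0.53 ± 0.10) and Gsr (0.52 ± 0.11). Without rAAV9-ST3GAL5.v1 replicate 1 the call of Gsr was lost (edgeR adjusted p = 0.0544). Ephx1, at −0.52 ± 0.18 (edgeR adjusted p = 0.0605), passed as lower with DESeq2 (adjusted p = 0.0180), in the fit of all 6 groups (adjusted p = 0.00972) and without rAAV9-ST3GAL5.v1 replicate 3 (−0.76, adjusted p = 0.00729). With only the 2 rAAV9-ST3GAL5.v2 livers that lack Gm47283, 6 genes were higher, beside 634 higher and 478 lower of all 15187 genes tested.

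The direct comparison of rAAV9-ST3GAL5.v1 with the E332K vector had 5 genes higher and 1 lower, where 9.55% of the 14742 genes tested were higher and 10% lower. Higher were Hmox1 (0.77 ± 0.15, edgeR adjusted p = 0.0118), Txnrd1 (0.72 ± 0.14, edgeR adjusted p = 0.0122), G6pdx (0.52 ± 0.13, edgeR adjusted p = 0.0274), Gsr (0.49 ± 0.13, edgeR adjusted p = 0.0354) and Nfe2l2 (0.39 ± 0.10, edgeR adjusted p = 0.0342). Ephx1 was lower (−0.98 ± 0.23, edgeR adjusted p = 0.0208), and its groups did not overlap. Srxn1, at 0.49 ± 0.20, did not pass (edgeR adjusted p = 0.117), and neither did Nqo1 at −0.49 ± 0.22, Gclc at 0.17 ± 0.10 or Gclm at −0.06 ± 0.12. Srxn1 did pass with no filter on low counts (edgeR adjusted p = 0.0485) and in the fit of all 6 groups (edgeR adjusted p = 0.0369). It also passed without E332K replicate 3 (0.76, edgeR adjusted p = 0.0296). With 3 livers a group the calls were sensitive to single livers, although all directions of the 6 called genes stayed. Without rAAV9-ST3GAL5.v1 replicate 1, 0 genes passed, and without E332K replicate 2, 3 did. Without E332K replicate 3 also 3 passed, namely Hmox1 and Txnrd1 of the 6 and Srxn1, which was newly called. The call of Nfe2l2 was lost without any 1 of rAAV9-ST3GAL5.v1 replicates 1 and 2 and E332K replicates 1, 2 and 3 (edgeR adjusted p between 0.0506 and 0.117), and held without rAAV9-ST3GAL5.v1 replicate 3. The call of Gsr was lost without rAAV9-ST3GAL5.v1 replicate 1 or any E332K liver (edgeR adjusted p between 0.0603 and 0.108). On log2(TPM + 1) Ephx1 was −0.79 and lost its call (limma adjusted p = 0.0576), and all calls split into 2010 higher and 521 lower against 1408 and 1479 on counts.

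**Figure D3:**
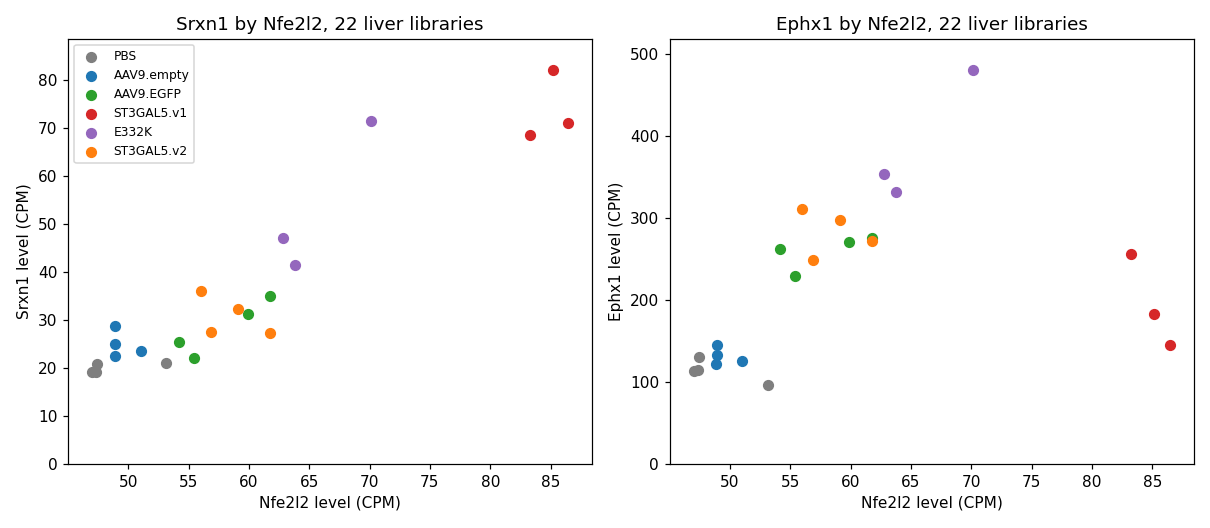
Level in CPM of Srxn1 (left, vertical axis) and of Ephx1 (right, vertical axis) against the level of Nfe2l2 in CPM (horizontal axis, not from 0) in the 22 libraries, coloured by group. The rAAV9-ST3GAL5.v1 livers are at the far right in both, with Srxn1 at 68.5 to 81.9 CPM and Ephx1 at 145.5 to 255.5 CPM, whereas the E332K livers reach 331.9 to 480.0 CPM of Ephx1.

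A further 75 genes of the pathway in 7 role groups were read beside the 10. In rAAV9-ST3GAL5.v1 against AAV9.empty 14 of the 74 tested were higher and 18 lower, beside 13.8% and 14.3% over all genes tested. In the E332K vector against AAV9.empty 22 of 73 were higher and none lower, beside 7.91% and 7.09% over all genes. The role groups below are small, and their counts are to be read against these same shares. In AAV9.EGFP against AAV9.empty 2 of 72 were higher and 0 lower, beside 0.387% and 0.0553% over all genes. In rAAV9-ST3GAL5.v2 against AAV9.empty 6 of 72 were higher and 1 lower, beside 2.89% and 2.50% over all genes. In AAV9.empty against PBS none was called, beside 0.104% higher and 0.207% lower over all genes. The medians of the list were −0.02 in rAAV9-ST3GAL5.v1 and 0.18 in the E332K vector.

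Among the regulators, 5 of 9 were higher and none lower in rAAV9-ST3GAL5.v1 against AAV9.empty, on counts and on TPM. Over all genes 13.8% were higher and 14.3% lower on counts, and 14.8% and 8.70% on TPM. Bach1, the repressor that competes with NRF2, stood at 58.0 to 77.7 CPM in rAAV9-ST3GAL5.v1 and at 26.4 to 32.4 CPM in AAV9.empty, a rise of 1.17 ± 0.11 (edgeR adjusted p = 0.000198). Maff, a small MAF partner, stood at 30.4 to 57.5 CPM against 5.02 to 11.1 CPM, a rise of 2.58 ± 0.27 (edgeR adjusted p = 0.000314). Both were also higher in rAAV9-ST3GAL5.v1 than in the E332K vector, by 1.04 ± 0.21 and 2.43 ± 0.31, and neither passed in the E332K vector against AAV9.empty (0.15 ± 0.16 and 0.16 ± 0.28). The activator and its repressor were thus both higher in rAAV9-ST3GAL5.v1. The 3 others that rose were Sqstm1, Mafk and Mafg, named after their values were seen. Of these, Sqstm1 (0.81 ± 0.13, edgeR adjusted p = 0.00146) and Mafk (0.60 ± 0.14, edgeR adjusted p = 0.0159) were also higher in the E332K vector against AAV9.empty.

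Of the glutathione genes 4 of 14 tested were higher and none lower in rAAV9-ST3GAL5.v1, where 13.8% of all genes were higher, and 4 of 14 were higher and none lower in the E332K vector, where 7.91% were. Chac1, which breaks glutathione down, rose from 0.593 ± 0.166 CPM (SD, n = 4) in AAV9.empty to 5.28 ± 0.292 CPM (SD, n = 3) in rAAV9-ST3GAL5.v1 and 5.23 ± 2.75 CPM (SD, n = 3) in the E332K vector, and it lay between 0.144 and 1.06 CPM in the livers of the other 3 groups. Slc7a11, the cystine carrier, held 121, 234 and 58 counts in the rAAV9-ST3GAL5.v1 livers, 15, 23 and 17 in the E332K livers and 1 to 7 in the AAV9.empty livers. In rAAV9-ST3GAL5.v2 it held 6, 6, 8 and 19 counts, and the last liver, at 0.947 CPM, lay within the 0.746 to 1.15 CPM of the E332K livers. Its log2 fold changes were 5.18 ± 0.65 and 2.42 ± 0.53 (edgeR adjusted p = 0.000705 and 0.0107), and it was 2.77 ± 0.55 higher in rAAV9-ST3GAL5.v1 than in the E332K vector (edgeR adjusted p = 0.0136).

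Of the other genes of NADPH supply beside G6pdx, 1 of 7 was higher and 3 lower in rAAV9-ST3GAL5.v1 against AAV9.empty, on counts and on TPM. Over all genes the shares were 13.8% and 14.3% on counts and 14.8% and 8.70% on TPM. Idh2, the mitochondrial isocitrate dehydrogenase that makes NADPH, stood at 126.0 to 141.4 CPM against 241.0 to 267.8 CPM, a fall of −0.89 ± 0.08 (edgeR adjusted p = 0.000169). Nnt, the mitochondrial transhydrogenase, stood at 68.8 to 78.5 CPM against 109.8 to 129.6 CPM, a fall of −0.68 ± 0.09 (edgeR adjusted p = 0.000854). Neither passed in the E332K vector against AAV9.empty, and both were lower in rAAV9-ST3GAL5.v1 than in the E332K vector, at −0.59 ± 0.15 and −0.59 ± 0.11. The gene that rose was Pgd, the next NADPH-making step after G6pdx, at 0.37 ± 0.09, named after its value was seen.

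Of the conjugation and carbonyl reduction genes 2 of 21 were higher and 8 lower in rAAV9-ST3GAL5.v1 against AAV9.empty, beside 13.8% and 14.3% of all genes. In the E332K vector 10 of 20 were higher and none lower, beside 7.91% and 7.09% of all genes. Between the 2 vectors 10 of 21 were lower in rAAV9-ST3GAL5.v1 and none was higher, and on log2(TPM + 1) 3 were lower and 1 was higher. Gsta3 and Gsta4, glutathione S-transferases, fell by 0.89 and 0.82 in rAAV9-ST3GAL5.v1 against AAV9.empty (edgeR adjusted p = 0.000474 and 0.000742). Both stood at −0.23 ± 0.12 and 0.02 ± 0.15 in the E332K vector, without passing. Gstp1, another such transferase, named after its values were seen, was called higher than in AAV9.empty in the E332K vector (edgeR adjusted p = 0.000121), in AAV9.EGFP (0.45 ± 0.08) and in rAAV9-ST3GAL5.v2 (0.69 ± 0.17). The transferases are families of near-identical genes, among which the counting may have divided reads, so the split between their members is uncertain.

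In the thioredoxin and peroxiredoxin group 1 of 12 was higher and 3 lower in rAAV9-ST3GAL5.v1 against AAV9.empty, beside 13.8% and 14.3% of all genes. Sesn2, a sestrin that helps to restore peroxiredoxins, was highest in the E332K vector, as was Ephx1. It stood at 40.01, 45.4 and 57.9 CPM in the E332K livers, at 28.9 to 37.1 CPM in rAAV9-ST3GAL5.v2, at 31.5 to 35.9 CPM in AAV9.EGFP, at 25.8 to 35.04 CPM in rAAV9-ST3GAL5.v1, at 15.5 to 21.4 CPM in PBS and at 16.7 to 18.1 CPM in AAV9.empty. It was called higher in all 4 vectors against AAV9.empty, at 1.44 ± 0.12, 0.89 ± 0.10, 0.91 ± 0.08 and 0.74 ± 0.12 in that order. Prdx4, the peroxiredoxin of the endoplasmic reticulum, fell by 0.52 in rAAV9-ST3GAL5.v1 (edgeR adjusted p = 0.00216) and differed by 0.00 ± 0.09 in the E332K vector.

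Of the heme and iron genes 1 of 7 was higher and 2 lower in rAAV9-ST3GAL5.v1 against AAV9.empty, beside 13.8% and 14.3% of all genes. Fth1, the ferritin heavy chain that stores the iron which heme oxygenase releases, stood at 1634 to 1682 CPM against 1241 to 1304 CPM (0.39 ± 0.07, edgeR adjusted p = 0.00272) and was as high in the E332K vector, where the rise was 0.39 ± 0.09 (edgeR adjusted p = 0.0138). Slc40a1, the iron exporter ferroportin, stood at 169 to 230 CPM against 273 to 345 CPM, a fall of −0.62 ± 0.12 (edgeR adjusted p = 0.00574). Of the 4 genes that remove superoxide and peroxide none was higher and 2 were lower: Cat, catalase, at −0.82 ± 0.17 (edgeR adjusted p = 0.00699) and Sod1, the cytosolic superoxide dismutase, at −0.26 ± 0.07 (edgeR adjusted p = 0.0168). Sod1 was higher in the E332K vector against AAV9.empty by 0.30 ± 0.09, a call that lay right at the threshold (edgeR adjusted p = 0.049999).

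**Figure D4:**
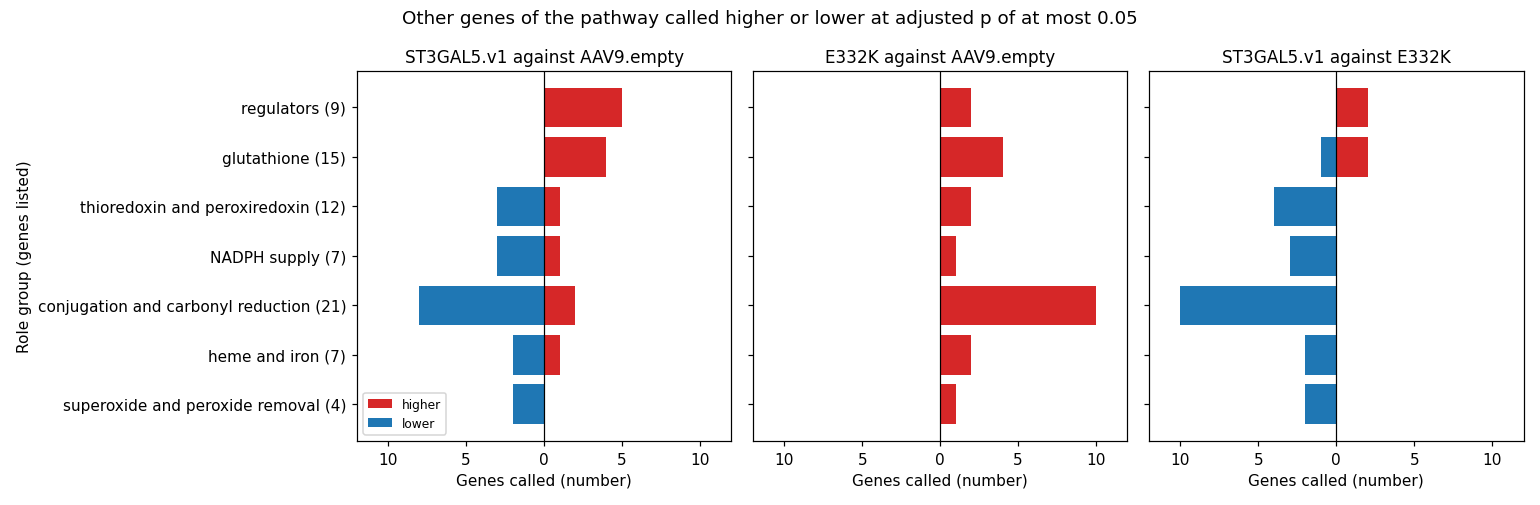
Number of genes called higher (to the right of 0) or lower (to the left of 0) by edgeR (adjusted p, threshold 0.05) in each of 7 role groups of the pathway (rows, with the number of genes listed), for 3 comparisons. Conjugation genes hold 8 lower calls in rAAV9-ST3GAL5.v1 and 10 higher calls in the E332K vector, each against AAV9.empty.

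Markers of the cell types of the liver moved with the rAAV9-ST3GAL5.v1 group, and their part in the results above was not tested. Of the 9 hepatocyte markers measured 8 were lower and 1 higher in rAAV9-ST3GAL5.v1 against AAV9.empty, with summed levels of 72007 to 87638 CPM against 105079 to 125895 CPM and Alb at 34259 to 41704 CPM against 52061 to 64496 CPM. Of 10 neutrophil markers 9 were higher, with sums of 2601 to 2935 CPM against 1748 to 1895 CPM and S100a8 at 425 to 590 CPM against 284 to 292 CPM. Of 11 Kupffer cell and macrophage markers 6 were lower and none higher, with overlapping sums of 1038 to 1429 CPM against 1282 to 1766 CPM and Clec4f at 79.6 to 91.4 CPM against 174 to 195 CPM. Of 11 erythroid markers 2 were higher, with sums of 29874 to 35603 CPM against 28563 to 35046 CPM and Alas2 at 475 to 514 CPM against 443 to 546 CPM.

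Of 5 cholangiocyte markers 3 were higher in rAAV9-ST3GAL5.v1 against AAV9.empty, with sums of 115 to 162 CPM against 40.7 to 61.1 CPM, while Krt19 stood at 6.68 to 11.1 CPM against 5.96 to 13.0 CPM. Of 8 markers of sinusoidal endothelium 2 were higher and 3 lower, with Stab2 at 66.0 to 74.2 CPM against 77.8 to 107 CPM, and of 8 stellate cell markers 2 were higher and 1 lower, with Lrat at 11.4 to 22.2 CPM against 10.9 to 14.9 CPM. In the E332K vector 2 hepatocyte markers were lower, 5 neutrophil markers higher and 3 Kupffer cell markers lower. There 3 stellate cell markers and 1 cholangiocyte marker were also lower, and 2 erythroid markers and 1 of sinusoidal endothelium higher. No marker of any of the 7 lists was called in AAV9.EGFP against AAV9.empty. In rAAV9-ST3GAL5.v2 against AAV9.empty 4 Kupffer cell markers and 1 of sinusoidal endothelium were lower, 2 erythroid markers were higher, and no hepatocyte or neutrophil marker was called.

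The genes whose levels ran most like those of Nfe2l2 over the 22 libraries, among 10791 genes with a mean of at least 5 CPM, were Ier5, Btg2 and Btg3, with Pearson r of log2 CPM of 0.93, 0.93 and 0.92. For Hmox1 they were Wfdc21, Rhou and Stfa2l1 (r of 0.92, 0.92 and 0.91), and for Nqo1 they were Tmem8, Cops5 and Bnip1 (r of 0.80, 0.79 and 0.79). These are descriptions over libraries that share their groups, so that any gene that differs between the same groups gives a high r.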

How the data were processed

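RNA-Seq of 22 mouse livers was analysed. The authors trimmed reads with Trimmomatic and used STAR and RSEM on mm10 (versions are not given in the sources used here) to deposit expected counts per gene and TPM values. Expected counts were rounded to whole numbers, since 5.69% were fractional. Groups were taken from the labels. Each comparison was fitted on its 2 groups in edgeR 4.0.16 (R 4.3.3) with TMM scaling, filterByExpr and the quasi-likelihood test, with Benjamini-Hochberg adjustment over all genes tested and a threshold of 0.05. Alternatives were DESeq2 1.42.0, its size factors, other filters, all 6 groups in one fit, a replicate block, limma 3.58.1 on log2(TPM + 1) or log2(TPM + 0.1), a fold of 2 and leaving out each liver. A further alternative, livers alike in Gm47283, was chosen after seeing the data. The scripts were tested on simulated data. The 10 genes and all lists were chosen with earlier results of these data known. Text names all 10, the 2 genes of each role group with the smallest adjusted p in rAAV9-ST3GAL5.v1 against AAV9.empty, 3 genes most like each of Nfe2l2, Nqo1 and Hmox1, 1 marker per cell type, Nnt and Gm47283. Promoter windows are RefSeq's.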

Additional observations from a re-analysis of the deposited data

Results flagged for a closer look

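Among 40 groups of 4 livers (the 10 genes in 4 groups), 4 held a liver far from the other 3 by Dixon's test, which chance gives in about 1 of 20 groups. Nqo1 stood at 16.0 CPM in rAAV9-ST3GAL5.v2 replicate 2, above 6.7 to 7.9 CPM in the other livers of that group. Gclc stood at 119.6 CPM in AAV9.EGFP replicate 4, Nfe2l2 at 53.1 CPM in PBS replicate 2 and Nfe2l2 at 51.0 CPM in AAV9.empty replicate 1, each the highest of its group.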

How the results depend on the processing

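Of 1510 values of the 10 genes under alternatives, 1436 stayed on their side of the threshold (1361 with the same sign and 75 with another sign and no call in either fit), 43 lost a call, 29 gained one and 2 reversed. Both reversals were Gclm in rAAV9-ST3GAL5.v1 against rAAV9-ST3GAL5.v2, at 0.42 on log2(TPM + 1) and 0.42 on log2(TPM + 0.1), and the cause was not tested. The medians over all genes were 0.17 and 0.20 there. With a fold of at least 2 required, 1 of the 10 genes was called in rAAV9-ST3GAL5.v1 against AAV9.empty, beside 1190 of all 14876 genes tested. Against AAV9.empty the E332K vector had 2 (455 of all 14760), AAV9.EGFP 0 (24 of 14473) and rAAV9-ST3GAL5.v2 1 (86 of 14558). AAV9.empty against PBS had 0 (4 of 14476). In rAAV9-ST3GAL5.v1 the number was 2 against PBS (1340 of 14866) and 1 against AAV9.EGFP (1134 of 14875). It was 2 against rAAV9-ST3GAL5.v2 (1051 of 14875) and 0 against the E332K vector (1023 of 14742). DESeq2 called 2 in AAV9.EGFP against AAV9.empty, beside 238 of all 13892 genes. In rAAV9-ST3GAL5.v2 against AAV9.empty 2 were called with DESeq2, with the fit of all 6 groups, with genes kept from a mean count of 10 upward and with each of the 3 limma settings. Over all genes DESeq2 gave 625 higher and 666 lower of 14281, the 6 groups 456 and 393 of 15873, and the mean count 375 and 313 of 14640. With limma it was 207 and 775 of 12893 on log2(TPM + 1) and 210 and 774 of 12893 on log2(TPM + 0.1). Without a filter limma gave 114 and 370 of 25103. The gene called beside Ephx1 was not the same. It was Nfe2l2, as higher, in the fits on counts and Txnrd1, as lower, in the limma settings. Leaving out 1 liver gave 6 to 8 calls in rAAV9-ST3GAL5.v1 against AAV9.empty, 5 to 7 against rAAV9-ST3GAL5.v2 and 0 to 6 against the E332K vector. Of all 14694 to 15252 genes tested in the first, 1327 to 2131 were higher and 1355 to 2230 lower. In the second it was 1075 to 1835 and 740 to 1639 of 14707 to 15295, and in the third 458 to 1588 and 411 to 1563 of 15053 to 15156. No label says that replicate numbers pair the livers, and no comparison had every correlation of same-numbered livers above 0.1. These correlations ran from 0.05 to 0.22 in rAAV9-ST3GAL5.v2 and from −0.18 to −0.13 in the E332K vector, each against AAV9.empty. With 3 or 4 pairs in a comparison they cannot show whether livers were paired. With the replicate block the calls were 6 in rAAV9-ST3GAL5.v1 against AAV9.empty, beside 1378 higher and 1787 lower of all 14694 genes tested. Against AAV9.empty the E332K vector had 2 (600 and 511 of 14558), AAV9.EGFP 1 (59 and 10 of 14473) and rAAV9-ST3GAL5.v2 1 (454 and 414 of 14558). AAV9.empty against PBS had 0 (33 and 69 of 14476). In rAAV9-ST3GAL5.v1 the number was 7 against PBS (1081 and 1246 of 14824) and 6 against AAV9.EGFP (1023 and 1336 of 14667). It was 5 against rAAV9-ST3GAL5.v2 (776 and 567 of 14707) and 5 against the E332K vector (1344 and 1473 of 14742). On log2(TPM + 0.1) the median of all genes shifted by −0.12 to 0.20 from that on counts. Over all genes, DESeq2 called 238 in place of 64 in AAV9.EGFP, 1291 in place of 784 in rAAV9-ST3GAL5.v2, each against AAV9.empty, and 300 in place of 45 in AAV9.empty against PBS. Nqo1, with the fewest counts, is the gene most limited by depth.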
